A study of Mus musculus with 4 samples.

Results

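Transcripts of the Tmem genes were compared between RNA pulled down with an antibody against 4E-T and RNA pulled down with control IgG from mouse neurospheres. The genes were chosen by their name, Tmem followed by a digit, and selected on their FPKM (reads per kilobase of exon, scaled per library), which had to be 1 or more in at least 2 of the 4 libraries. Of 212 Tmem rows among the 21738 listed genes, 161 passed and 51 did not. The 161 were all among the 12585 genes that passed the same limit and were tested. Of these 161, 157 are protein-coding or of coding type, and 4 are pseudogenes or an antisense transcript (Tmem147os, Tmem181b-ps, Tmem181c-ps and Tmem250-ps).

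Tmem is a provisional family name. It is given to proteins with at least one predicted membrane-spanning segment whose function was unknown when they were named, so the members share a topology and not a pathway or an ancestor. Their mRNAs are mostly translated at the endoplasmic reticulum, and the proteins work in nearly every membrane of the cell, as channels, lipid scramblases, glycosylation and assembly factors, trafficking receptors and parts of the ciliary gate. 4E-T, encoded by Eif4enif1, attaches to eIF4E, the factor that binds the mRNA cap, and helps to hold mRNAs untranslated in P-bodies, which are cytoplasmic granules without ribosomes.

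The neurospheres, free-floating clusters grown from neural stem and precursor cells, came from the V-SVZ (the stem cell niche along the lateral ventricles) of wild-type (WT) CD1 mice aged P7/P8, with a time label of 7 days. Immunoprecipitated RNA was sequenced from 2 anti-4E-T libraries and 2 anti-IgG libraries, numbered Exp1 and Exp2. All 4 share genotype and strain. Whether each came from its own culture or animal, or from pooled animals, is not in the labels, so the p-values cover only the spread between the 4, and that may be technical. Input RNA was not analysed here. Each difference is therefore one between antibodies, scaled per library, and a transcript called lower with 4E-T may still have been recovered with it.

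The libraries held 85451469 and 72769612 recovered reads with 4E-T and 85828188 and 77919577 with IgG. All 8 neural precursor markers checked passed the limit for testing, with a summed FPKM of 5189 and 3925 with 4E-T and 3311 and 3498 with IgG. Of these markers 4 were called higher, 0 lower and 4 were not called. Hes5 differed most, with 741 and 778 FPKM with 4E-T, against 86.3 and 130 FPKM with IgG. Fabp7, the most abundant, had 3475 and 2386 FPKM with 4E-T and 2591 and 2758 FPKM with IgG, and was not called. The oligodendrocyte list, carried mostly by Cnp, summed to 171 and 163 with 4E-T, against 93.5 and 86.2 with IgG. Neuron markers summed to 17.1 and 16.1 with 4E-T and 17.2 and 15.9 with IgG, although of the 3 that were tested Tubb3 was called higher (0.54) and Syp lower (-0.73), and ependymal markers to 9.39 and 9.40 with 4E-T and 8.76 and 11.9 with IgG. No endothelial or microglial marker reached the limit for testing. The part that the precursor and oligodendrocyte sums play in the differences below was not tested, and in bulk material fewer cells of a type and less RNA per cell cannot be told apart.

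Of the 161 Tmem genes, 31 were called higher with 4E-T and 34 lower, at a limma adjusted p under 0.05. That is 19.3% higher and 21.1% lower, while among all tested genes 34.3% were called higher and 15.2% lower. The median difference of the Tmem genes was 0.01 on the log2(FPKM + 1) scale, against 0.16 for all tested genes, and 54 of the 161 lay above the median of all tested genes. Differences ran from -1.42 to 1.31. On this scale a change of at least 2-fold was called for 2 members higher and 3 lower, beside a background of 3.57% higher and 1.91% lower. The log2(FPKM + 1) scale understates the change of low genes. Folds below are taken from it unless a ratio of mean FPKM is named. In the authors' deposited table, DESeq2 called 27 members higher and 33 lower, beside 33.3% and 13.5% of the tested genes. In that table, 59 members were called the same way as here and 0 the opposite way. Both 4E-T values stood above both IgG values in 62 of the 161 members and below both in 59. Among the 12585 tested genes this held for 6360 and 3171. Every gene called higher or lower was separated in this way, so such a separation adds nothing to a call.

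The balance of the calls moved with the scaling between libraries. With the FPKM rescaled so that the median ratio between libraries was equal, the median of all tested genes became -0.0025 and that of the Tmem genes -0.15. Under that scaling 13 Tmem genes were called higher and 54 lower, beside 22.8% higher and 23.6% lower among all tested genes. Relative to all tested genes the picture was alike under both scalings: in 13 of 13 alternative settings the Tmem genes had a smaller share of higher calls and a larger share of lower calls than the whole table. These settings reuse the same 4 libraries. In the setting with no filter the whole table was 21738 genes, low ones included, while the 161 members had all passed the limit, so that comparison is unlike. Calls that held in every setting in which the gene was tested numbered 11 of 31 higher and 17 of 34 lower. Of these, Tmem132e among the higher and Tmem100, Tmem56, Tmem245 and Tmem196 among the lower were too low to be tested at FPKM of at least 5. Tmem196, counted among the 17, passed the FPKM limit through the IgG libraries alone, as did Tmem255a among the 34. Tmem121b among the 31 passed through the 4E-T libraries alone. These genes had to differ to be members, so their calls carry no separate weight.

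Of the members described below, Tmem181b-ps, Tmem178, Tmem50a, Tmem63a, Tmem63b, Tmem43, Tmem176a and Tmem258 were uncalled under median ratio scaling, quantile normalisation and voom (a weighted limma fit on reads recovered from the FPKM). Tmem14c and Tmem173 were uncalled under the first and the last of these, and Tmem42 and Tmem104 with voom. Without a filter on low values, Tmem173, Tmem258, Tmem43, Tmem63b, Tmem50b, Tmem80 and Tmem167 were uncalled. The members called lower that are described below stayed called lower under all these scalings, with larger differences under voom, such as -0.90 for Tmem126b and -0.82 for Tmem216, against -0.56 and -0.51 on the main scale.

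**Figure D1:**
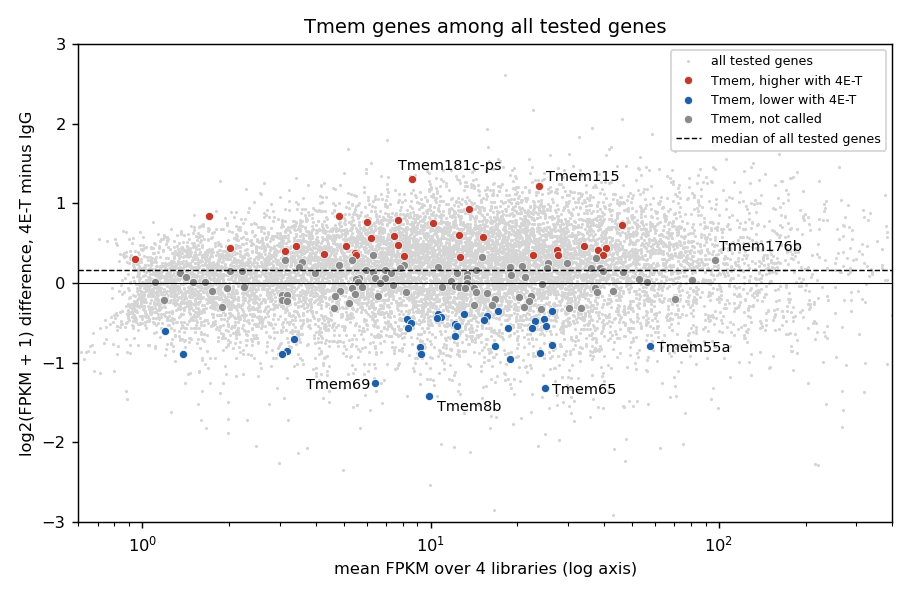
Each coloured point is 1 Tmem gene, by its mean FPKM over the 4 libraries (log axis) and its log2(FPKM + 1) difference, 4E-T minus IgG. Grey dots are all tested genes, and those beyond the axis limits are not drawn. The Tmem genes run from -1.42 (Tmem8b) to 1.31 (Tmem181c-ps), and most lie below the dashed median of all tested genes at 0.16.

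Tmem115 was the protein-coding member furthest up on the log2(FPKM + 1) scale. It is a Golgi protein that takes part in retrograde transport to the endoplasmic reticulum. In the authors' deposited table Tmem132e stood above it, with a log2 fold change of 1.40 against 1.28. Tmem115 had 36.2 and 31.0 FPKM with 4E-T, against 14.3 and 13.4 FPKM with IgG. The groups did not overlap, as for every gene called. The difference of 1.22 ± 0.14 (SE, n = 2 per antibody, limma adjusted p = 9.13e-08) is 2.32-fold. The gene, ENSMUSG00000010045.2, spans chr9:107533945-107538656 in GRCm38.p6, and no other coding gene overlaps it.

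Tmem131 and Tmem131l were both higher with 4E-T. Tmem131l, which acts on Wnt receptor turnover in human cells, had 18.7 and 17.5 FPKM with 4E-T, against 9.08 and 8.93 FPKM with IgG, a 1.91-fold difference (limma adjusted p = 3.17e-06). Tmem131, which takes part in collagen secretion from the endoplasmic reticulum, had 9.09 and 6.67 FPKM with 4E-T and 4.38 and 3.94 FPKM with IgG (1.71-fold). For each gene, both 4E-T libraries stood above both IgG libraries, as for every gene called higher.

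Tmem132a and Tmem132e belong to a family of single-pass proteins with links to cell adhesion, and loss of Tmem132a disturbs neural tube closure in the mouse. Tmem132a had 10.3 and 9.73 FPKM with 4E-T, against 5.34 and 5.38 FPKM with IgG (1.73-fold). Tmem132e was scarce, with 2.68 and 2.27 FPKM with 4E-T and 1.04 and 0.834 FPKM with IgG, and its log2 difference of 0.84 at a pseudocount of 1 became 1.32 at a pseudocount of 0.1. Tmem132b, the other measured relative, had 2.03 and 1.78 FPKM with 4E-T and 2.03 and 2.05 FPKM with IgG, and was not called.

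The Tmem181 rows were all called higher, but they are near-identical copies on chromosome 17 whose reads the counting could split, so their single values are uncertain. The pseudogene Tmem181c-ps had 10.001 and 15.6 FPKM with 4E-T, against 4.58 and 4.31 FPKM with IgG (2.48-fold). Tmem181a had 5.87 and 7.05 FPKM with 4E-T and 3.25 and 3.02 FPKM with IgG. Tmem181b-ps had 15.2 and 21.7 FPKM with 4E-T and 11.7 and 12.02 FPKM with IgG, and it was no longer called without 4E-T library 2 (limma adjusted p = 0.119), without IgG library 1 (0.0654) or without IgG library 2 (0.0593). In each of these genes the 4E-T libraries stood above the IgG libraries, as for every gene called higher, and the second 4E-T library was the highest.

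Tmem39b, whose relative Tmem39a is an endoplasmic reticulum protein, had 14.4 and 11.8 FPKM with 4E-T, against 7.25 and 7.38 FPKM with IgG (1.69-fold). Tmem42 had 9.57 and 8.75 FPKM with 4E-T and 5.69 and 5.83 FPKM with IgG (1.502-fold). Neither gene's groups overlapped, which holds for every gene called.

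The largest decrease on the log2(FPKM + 1) scale was that of Tmem8b, a cell surface protein. In the authors' deposited table its log2 fold change was -1.58, against -1.67 for Tmem196. Tmem8b had 4.18 and 5.76 FPKM with 4E-T, against 15.1 and 14.6 FPKM with IgG. On the log2(FPKM + 1) scale it was 2.68-fold lower (difference -1.42 ± 0.14, SE, n = 2 per antibody, limma adjusted p = 9.06e-09). Both IgG values lay above both 4E-T values, as for every gene called lower. The gene, ENSMUSG00000078716.9, spans chr4:43668971-43692668 in GRCm38.p6.

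Tmem65, an inner mitochondrial membrane protein linked to calcium export from the matrix, followed with 13.1 and 14.5 FPKM with 4E-T, against 40.6 and 31.6 FPKM with IgG (2.49-fold lower; limma adjusted p = 4.67e-08). Tmem69, whose function is poorly known, had 3.59 and 3.13 FPKM with 4E-T and 9.92 and 8.93 FPKM with IgG (2.39-fold lower). In both genes the IgG libraries lay above the 4E-T libraries, as for every gene called lower.

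Tmem123, also called porimin, a mucin-like surface protein, had 11.9 and 13.0 FPKM with 4E-T, against 27.9 and 22.4 FPKM with IgG (1.94-fold lower). Tmem229a had 15.7 and 17.5 FPKM with 4E-T and 34.7 and 28.0 FPKM with IgG (1.83-fold lower). Tmem136 had 6.51 and 5.86 FPKM with 4E-T and 12.7 and 11.9 FPKM with IgG (1.85-fold lower). In all of these the IgG libraries lay above the 4E-T libraries, as for every gene called lower, with IgG library 1 the highest.

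**Figure D2:**
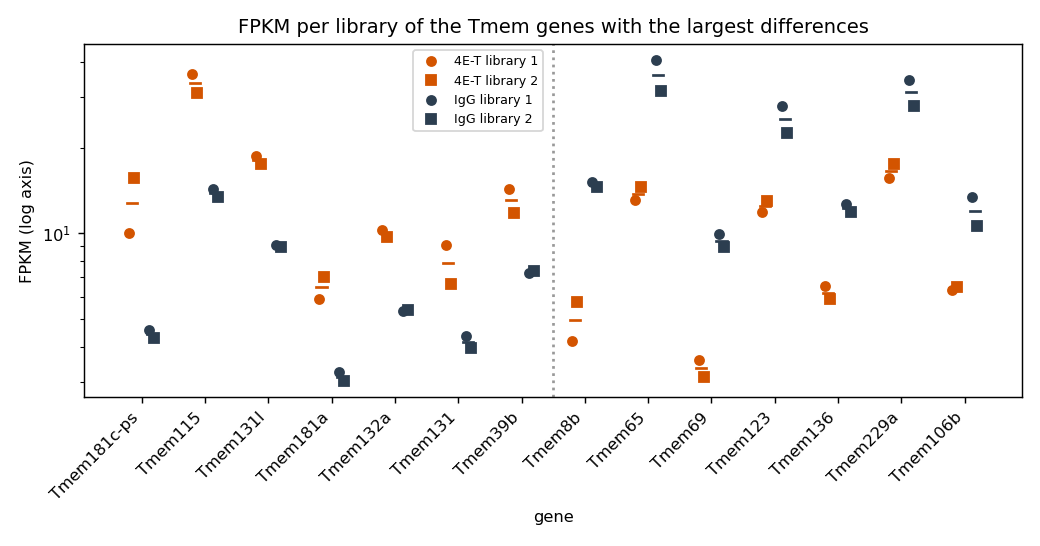
FPKM on a log axis for the 7 members with the largest differences in each direction among those whose higher group averaged 5 FPKM or more. Orange marks are the 4E-T libraries, dark marks the IgG libraries, circles library 1, squares library 2 and short lines the group means. Left of the dotted line all 4E-T points lie above the IgG points of the same gene, and right of it all lie below. This holds for every gene called.

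The promoters of 134 members could be matched in RefSeq (GRCm38.p6), and the 100 bases before the start were searched on both strands for the letters GGGCGG (the GC box bound by Sp factors) and CCAAT. The GC box letters stood in 71 of the 134 windows (53.0%), against 49.2% of 9252 promoters of tested genes and 25.2% of 27025 promoters in all. They stood in 18 of 25 members called higher (72.0%), 16 of 30 called lower (53.3%) and 37 of 79 not called (46.8%). CCAAT stood in 30 members (22.4%), against 24.4% of promoters of tested genes and 19.6% of all promoters. A match is a description of the letters, and the libraries measure RNA, not promoter activity. The windows below, 5′ to 3′ on the gene's strand, belong to the 2 coding members with the largest difference in each direction among those with a single start window, and capitals mark a GC box on either strand.
Tmem131l (higher, chr3:84040162-84040261, minus strand): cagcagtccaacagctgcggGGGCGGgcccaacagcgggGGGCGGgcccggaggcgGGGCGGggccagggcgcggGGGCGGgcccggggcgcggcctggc
Tmem132e (higher, chr11:82388800-82388899, plus strand): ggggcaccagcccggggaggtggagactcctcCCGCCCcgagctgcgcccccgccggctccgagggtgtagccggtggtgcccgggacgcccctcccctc
Tmem69 (lower, chr4:116555944-116556043, minus strand): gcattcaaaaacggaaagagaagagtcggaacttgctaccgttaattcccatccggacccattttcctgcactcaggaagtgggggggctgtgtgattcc
Tmem196 (lower, chr12:119946027-119946126, plus strand): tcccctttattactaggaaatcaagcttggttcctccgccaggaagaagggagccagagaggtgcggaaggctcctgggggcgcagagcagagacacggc
The G and C content of these windows was 87.0% for Tmem131l, 80.0% for Tmem132e, 51.0% for Tmem69 and 59.0% for Tmem196, where the median was 66.5% for the members and 65.0% for promoters of tested genes. Neither motif was found in the windows of Tmem69 and Tmem196. Of these, Tmem196 passed the FPKM limit through the IgG libraries alone.

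Abundance did not separate the calls. Mean FPKM over the 4 libraries ran from 0.941 (Tmem121b) to 97.0 (Tmem176b), where the highest of all tested genes was 4759. Under 5 FPKM, 7 of 38 members were called higher and 5 lower; at 5 to 20 FPKM, 15 of 79 higher and 20 lower; over 20 FPKM, 9 of 44 higher and 9 lower. Over all tested genes the share called higher was 22.2%, 39.1% and 39.7% in these bins, and the share called lower 17.5%, 13.5% and 15.0%. Across the 161 members Pearson's r between the difference and log mean FPKM was -0.030 (rho -0.042), against 0.13 (rho 0.16) across all tested genes. Genes in one library share its depth, so these are descriptions with no p.

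The most abundant member, Tmem176b, a channel-like protein of intracellular membranes, had 111 and 102 FPKM with 4E-T, against 88.0 and 86.2 FPKM with IgG, and was not called (difference 0.29 ± 0.15, SE; limma adjusted p = 0.113). Its neighbour and relative Tmem176a, which overlaps it, was called higher with 32.0 and 31.0 FPKM with 4E-T and 23.95 and 22.9 FPKM with IgG (limma adjusted p = 0.0140), a call not kept without 4E-T library 1 (0.0622), IgG library 1 (0.0677) or IgG library 2 (0.117). Without strand, reads of such overlapping genes cannot be told apart. Tmem59, a Golgi protein that affects processing of the amyloid precursor, had 95.6 and 68.9 FPKM with 4E-T and 79.5 and 78.2 FPKM with IgG, so its groups overlapped. Tmem165, a Golgi ion transporter needed for glycosylation, overlapped likewise, with 58.7 and 54.1 FPKM with 4E-T and 60.3 and 51.7 FPKM with IgG.

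Tmem222 and Tmem234, also among the 8 most abundant, had differences of 0.05 and 0.14. The differences of Tmem59, Tmem165, Tmem222 and Tmem234 turned negative, still uncalled, with median ratio scaling, quantile normalisation and voom on the recovered reads. Of the 8, Tmem11 was called higher, Tmem55a lower and the others were not called.

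The members that only just met the limit, by their second-highest FPKM, were Tmem35b, Tmem121b and Tmem170, and those that only just missed it were Tmem267, Tmem178b and Tmem74. Tmem35b had 0.979 and 1.256 FPKM with 4E-T and 1.09 and 1.09 FPKM with IgG. Tmem121b had 1.13 and 1.15 FPKM with 4E-T and 0.805 and 0.673 FPKM with IgG, and passed the limit through the 4E-T libraries alone. Tmem170 had 0.969 and 1.09 FPKM with 4E-T and 1.40 and 1.30 FPKM with IgG. Of the members just inside, only Tmem121b had both 4E-T values above both IgG values. Tmem267 had 0.871 and 1.07 FPKM with 4E-T and 0.824 and 0.885 FPKM with IgG. Tmem178b had 0.610 and 0.686 FPKM with 4E-T and 0.952 and 1.08 FPKM with IgG. Tmem74 had 0.838 and 0.651 FPKM with 4E-T and 1.02 and 0.599 FPKM with IgG. Tmem255a and Tmem196 passed through the IgG libraries alone, so these and Tmem121b had to differ to be members.

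By the known or best-supported location of the protein, 94 members were placed in 7 groups and 67 were not placed. The placed members held 16 higher and 19 lower calls (17.0% and 20.2%) and the unplaced 15 and 15 (22.4% each). Among all tested genes the shares were 34.3% and 15.2%. The transition zone was the one location with calls in a single direction.

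Of 30 members placed in the endoplasmic reticulum, 6 were called higher and 2 lower, with a median difference of 0.02, and this balance turned to 2 higher and 9 lower under median ratio scaling, 3 and 9 under quantile normalisation and 2 and 11 with voom. Beside Tmem131, the higher ones included Tmem214, a membrane anchor for stress-induced caspase signalling in human cells, with 15.4 and 15.1 FPKM with 4E-T, against 9.88 and 9.63 FPKM with IgG (1.51-fold). Tmem178, a calcium regulator, had 9.92 and 8.39 FPKM with 4E-T and 5.87 and 6.68 FPKM with IgG, and it was no longer called without 4E-T library 1 (limma adjusted p = 0.0798) or IgG library 1 (0.0870). Tmem173, also known as STING, the sensor of cyclic dinucleotides, had 2.92 and 2.02 FPKM with 4E-T and 1.74 and 1.36 FPKM with IgG (limma adjusted p = 0.0118), and was uncalled without 4E-T library 1 (0.200), IgG library 1 (0.0502) or IgG library 2 (0.215).

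Tmem33, an endoplasmic reticulum protein with a part in the unfolded protein response, was the member of this group furthest down, with 11.8 and 12.02 FPKM with 4E-T, against 24.2 and 18.7 FPKM with IgG (1.72-fold lower). Tmem98, which binds the oligodendrocyte factor Myrf, had 22.8 and 18.1 FPKM with 4E-T and 29.1 and 30.6 FPKM with IgG. It was no longer called without 4E-T library 2 (limma adjusted p = 0.0666) or IgG library 2 (0.0684).

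Tmem258 is a small subunit of oligosaccharyltransferase, the enzyme that puts N-glycans on new proteins. It had 43.9 and 42.9 FPKM with 4E-T, against 27.9 and 37.5 FPKM with IgG (1.33-fold; limma adjusted p = 0.0239), and was uncalled without 4E-T library 1 (0.0571) or IgG library 1 (0.405), with a difference of 0.62 without IgG library 2. It overlaps Fen1. Of 10 other subunits of that enzyme, 5 were called higher and 0 lower, where 34.3% of all tested genes were called higher and 15.2% lower. These counts became 3 and 1 with median ratio scaling (22.8% and 23.6% of all tested genes) and 3 and 2 with voom (19.7% and 26.9%). Higher calls numbered 2 without 4E-T library 1 (26.5%), 3 without IgG library 1 (24.7%) and 1 without IgG library 2 (19.0%). Among those higher was the ribophorin Rpn1 with 67.8 and 50.3 FPKM with 4E-T and 36.7 and 31.5 FPKM with IgG. Rpn2 had 145 and 101 FPKM with 4E-T and 78.2 and 69.6 FPKM with IgG, and it was no longer called without IgG library 2 (limma adjusted p = 0.0900).

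Tmem147 works at the translocon with Nicalin (Ncln) and Nomo1. It had 69.6 and 61.0 FPKM with 4E-T, against 78.2 and 72.3 FPKM with IgG, and was not called (difference -0.20; limma adjusted p = 0.263), although it was called lower with median ratio scaling (0.0182), quantile normalisation (0.00705) and voom (0.00517). Nomo1 was called higher, with 25.8 and 19.9 FPKM with 4E-T and 12.1 and 11.3 FPKM with IgG, while Ncln had a difference of 0.30 (limma adjusted p = 0.0816). Of 13 genes of the translocon, 1 was called higher and 4 lower, beside 34.3% and 15.2% of all tested genes. Of these Ssr3, a subunit of the translocon-associated TRAP complex, moved most, with 42.8 and 41.8 FPKM with 4E-T and 106 and 87.9 FPKM with IgG.

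Tmem41b, a scramblase that moves lipids during autophagosome formation, had 7.14 and 7.51 FPKM with 4E-T, against 8.03 and 6.87 FPKM with IgG, and its groups overlapped. Of 7 genes that work beside it, 4 were called higher and 0 lower, beside 34.3% and 15.2% of all tested genes, and 3 higher and 1 lower under quantile normalisation (25.1% and 22.5%) and under voom (19.7% and 26.9%). They included Atg2a, a lipid transfer protein, with 9.96 and 9.51 FPKM with 4E-T and 5.68 and 5.75 FPKM with IgG, and the scramblase Vmp1 with 26.7 and 24.1 FPKM with 4E-T and 20.4 and 17.9 FPKM with IgG, a call that was not kept under median ratio scaling (limma adjusted p = 0.147) or without 4E-T library 1 (0.143), IgG library 1 (0.0521) or IgG library 2 (0.210).

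The nuclear envelope group of 8 had 1 higher and 1 lower call (12.5% each), beside 34.3% and 15.2% of all tested genes. Its median difference was 0.20. Tmem43, an inner nuclear membrane protein, had 33.7 and 28.5 FPKM with 4E-T, against 25.3 and 23.0 FPKM with IgG (limma adjusted p = 0.0419), and it was no longer called without 4E-T library 1 (0.292), IgG library 1 (0.103) or IgG library 2 (0.259). Tmem170b, placed here after its relative Tmem170, had 7.60 and 10.9 FPKM with 4E-T and 15.4 and 14.9 FPKM with IgG, a difference of -0.67 that became -0.43 without 4E-T library 1.

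Of 12 members of the Golgi and secretory pathway, 3 were called higher and 3 lower, with a median difference of 0.03, and without IgG library 1 the lower calls were 0. In the main fit 34.3% of all tested genes were called higher and 15.2% lower. The members called higher here were Tmem115, Tmem132a, whose placement here is less sure, and Tmem87b. Tmem87b is a Golgi protein with 7.52 and 7.61 FPKM with 4E-T, against 5.10 and 4.53 FPKM with IgG (1.47-fold). Lower were Tmem167, Tmem167b and Tmem230, which act in the secretory pathway. Tmem167b, the relative of Tmem167, had 10.5 and 9.22 FPKM with 4E-T and 16.4 and 13.2 FPKM with IgG, and it was uncalled without IgG library 1 (limma adjusted p = 0.0928). Tmem167, a relative of the yeast secretory protein Ksh1, had 8.37 and 9.67 FPKM with 4E-T and 13.1 and 11.2 FPKM with IgG, and was uncalled without 4E-T library 1 (0.188) or IgG library 1 (0.204). Tmem230 had 9.47 and 8.81 FPKM with 4E-T and 13.2 and 11.96 FPKM with IgG, and was uncalled without 4E-T library 2 (0.0766) or IgG library 1 (0.107).

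Endosomes and lysosomes held 9 members with 1 higher and 3 lower calls (11.1% and 33.3%), beside 34.3% and 15.2% of all tested genes. Their median difference was -0.21. Tmem55a, a phosphatase of phosphatidylinositol bisphosphate in late endosomes, was the most abundant member called lower, with 45.3 and 38.4 FPKM with 4E-T, against 80.9 and 66.0 FPKM with IgG (1.74-fold lower; limma adjusted p = 9.74e-05). Its relative Tmem55b, which helps to position lysosomes, had 22.6 and 25.9 FPKM with 4E-T and 24.8 and 24.2 FPKM with IgG, and was not called.

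Tmem106b, a lysosomal protein whose human gene carries risk variants for frontotemporal dementia, had 6.34 and 6.47 FPKM with 4E-T, against 13.4 and 10.6 FPKM with IgG (1.75-fold lower). Tmem175, a lysosomal cation channel, had 6.95 and 6.64 FPKM with 4E-T and 10.6 and 8.82 FPKM with IgG, and it was no longer called without IgG library 1 (limma adjusted p = 0.119). It overlaps Dgkq, which was called higher (0.0178) but not without 4E-T library 2 (0.195), IgG library 1 (0.0847) or IgG library 2 (0.138). Tmem104 was higher, with 6.26 and 5.92 FPKM with 4E-T and 4.15 and 4.09 FPKM with IgG, but it was uncalled with voom (0.0688). It overlaps Nat9, which was also called higher, but not with voom (0.0781) or without 4E-T library 1 (0.113), IgG library 1 (0.0538) or IgG library 2 (0.0637).

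At the plasma membrane, 3 of 14 members (21.4%) were called higher and 4 (28.6%) lower, beside 34.3% and 15.2% of all tested genes. The median difference was -0.03. Beside Tmem132e, the higher ones were Tmem63a and Tmem63b, mechanically gated ion channels. Tmem63b had 47.2 and 42.2 FPKM with 4E-T, against 35.2 and 34.6 FPKM with IgG (1.27-fold; limma adjusted p = 0.0436), and Tmem63a had 4.73 and 5.11 FPKM with 4E-T and 3.72 and 3.46 FPKM with IgG. Both calls were lost without IgG library 1 (0.158 for Tmem63b and 0.0668 for Tmem63a) or IgG library 2 (0.198 and 0.137). That of Tmem63b was also lost without 4E-T library 1 (0.220) and that of Tmem63a without 4E-T library 2 (0.0995).

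Beside Tmem8b and Tmem123, Tmem47 and Tmem100 were lower. Tmem47, a claudin-like protein of cell junctions, had 18.2 and 19.9 FPKM with 4E-T, against 37.5 and 29.8 FPKM with IgG (1.72-fold lower). Tmem100, a target of BMP signalling in endothelium, had 2.50 and 2.16 FPKM with 4E-T and 4.40 and 4.37 FPKM with IgG. Tmem30a, a chaperone of P4-ATPase lipid flippases, had 27.3 and 26.0 FPKM with 4E-T and 38.4 and 28.8 FPKM with IgG, and was not called (limma adjusted p = 0.0821). Of 9 flippase genes tested, 4 were called higher and 0 lower, beside 34.3% and 15.2% of all tested genes, with Atp9b the highest difference at 0.69. Which of these 9 depend on Tmem30a was not tested. With median ratio scaling 1 was called higher (22.8% of all tested genes), without IgG library 2 also 1 (19.0%) and without 4E-T library 2 there were 2 (33.8%).

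Mitochondria held 12 members, of which 2 were called higher and 3 lower, with a median difference of 0.03. Tmem11, an inner membrane protein that shapes mitochondria, was the most abundant member called higher, with 53.6 and 61.8 FPKM with 4E-T, against 36.8 and 31.9 FPKM with IgG (1.66-fold; limma adjusted p = 0.000168), a log2 difference of 0.73 that was 0.49 with voom. Tmem14c, needed for haem synthesis in red cell precursors, had 42.2 and 36.9 FPKM with 4E-T and 30.3 and 26.5 FPKM with IgG, and it was no longer called without 4E-T library 1 (0.0789) or IgG library 2 (0.154).

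Tmem126b, an assembly factor of respiratory complex I, had 6.12 and 7.00 FPKM with 4E-T, against 10.9 and 9.41 FPKM with IgG (1.48-fold lower). Its relative Tmem126a had 13.5 and 14.1 FPKM with 4E-T and 14.9 and 15.2 FPKM with IgG and was not called. Of 7 other complex I assembly genes, 2 were called higher (Acad9 and Ecsit) and 1 lower (Ndufaf2), beside 34.3% and 15.2% of all tested genes. Ecsit was uncalled with median ratio scaling (0.0750) and Ecsit (0.0660) and Ndufaf2 (0.101) without IgG library 1, and Ecsit without IgG library 2 (0.0858). Tmem242, an assembly factor of the ATP synthase, had 19.5 and 16.2 FPKM with 4E-T and 23.7 and 30.2 FPKM with IgG, and it was uncalled without IgG library 2 (limma adjusted p = 0.117). Tmem70, which works in the same assembly, had 33.8 and 30.8 FPKM with 4E-T and 28.4 and 25.7 FPKM with IgG, and was not called (0.143).

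**Figure D3:**
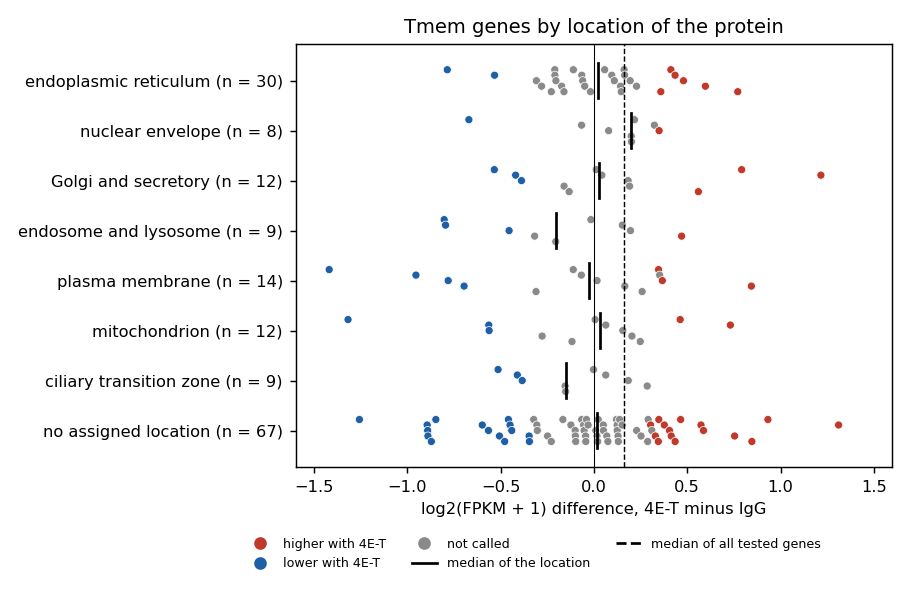
Each point is 1 Tmem gene by the location of its protein and its log2(FPKM + 1) difference, 4E-T minus IgG. Black bars are the median of a location and the dashed line the median of all tested genes, 0.16. Medians of the locations lie between -0.21 (endosome and lysosome) and 0.20 (nuclear envelope), and higher and lower calls stand side by side in every location except the ciliary transition zone.

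The transition zone is the gate at the base of the primary cilium, built by a membrane module to which several Tmem proteins belong and by soluble and coiled-coil proteins. Of 9 Tmem genes of this gate, 0 were called higher and 3 lower, beside 34.3% and 15.2% of all tested genes. The median difference was -0.15. With voom 5 were lower, beside 26.9% of all tested genes, and fewer than 3 were lower without IgG library 2. Tmem216 had 10.3 and 9.41 FPKM with 4E-T, against 15.1 and 13.97 FPKM with IgG (1.43-fold lower; limma adjusted p = 0.00279). Tmem138 had 13.4 and 13.2 FPKM with 4E-T and 16.7 and 19.3 FPKM with IgG (1.33-fold lower; 0.0156), and it was no longer called without 4E-T library 2 (0.0527) or IgG library 2 (0.161). Tmem80, whose placement at the gate is less sure, had 10.4 and 11.9 FPKM with 4E-T and 14.7 and 15.1 FPKM with IgG (1.31-fold lower; 0.0218), and it was no longer called without 4E-T library 1 (0.178), IgG library 1 (0.0830) or IgG library 2 (0.115).

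Each of the 3 overlaps another coding gene, Cpsf7 for Tmem216, Cyb561a3 for Tmem138 and Deaf1 for Tmem80. None of these neighbours was called, with differences of -0.03, 0.16 and 0.26. Among the other 6 genes of the gate, Tmem67, the receptor-like meckelin, had 3.72 and 3.37 FPKM with 4E-T, against 2.96 and 2.51 FPKM with IgG (limma adjusted p = 0.0724). Tmem237, the most abundant, had 27.4 and 26.8 FPKM with 4E-T and 23.97 and 23.5 FPKM with IgG (0.274).

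Of the 9 other components of the same gate that are reported here, 7 were called higher, where 34.3% of all tested genes were. With median ratio scaling 5 were called higher (22.8% of all tested genes), without 4E-T library 1 there were 4 (26.5%) and without IgG library 2 also 4 (19.0%). Cc2d2a, a scaffold of the gate, had 28.1 and 24.2 FPKM with 4E-T, against 8.54 and 7.90 FPKM with IgG (2.94-fold; limma adjusted p = 1.26e-09). Mks1 had 15.7 and 14.7 FPKM with 4E-T and 9.09 and 8.50 FPKM with IgG, and Cep290, which links membrane and microtubules, had 3.01 and 2.89 FPKM with 4E-T and 1.34 and 1.504 FPKM with IgG. The Tmem genes of the gate and its other components were not tested against each other.

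**Figure D4:**
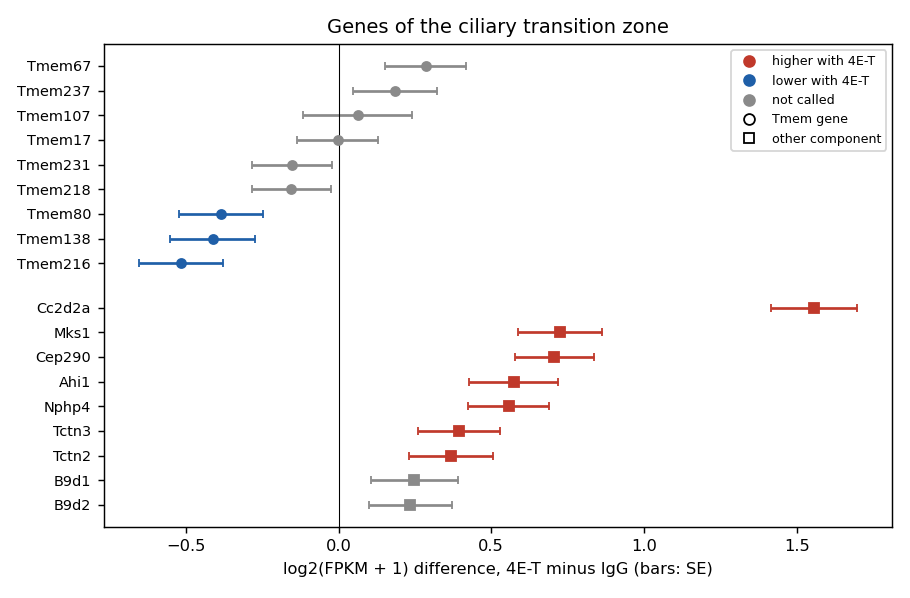
Log2(FPKM + 1) differences, 4E-T minus IgG, with their SE, for genes of the ciliary transition zone. Circles are the 9 Tmem genes and squares the 9 other components reported here. The Tmem genes lie between -0.51 (Tmem216) and 0.29 (Tmem67), and Cc2d2a lies furthest right at 1.56.

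Exon length, recovered from the values, ran differently in the Tmem genes and in the whole table. Among all tested genes the share called higher was 14.7% under 1500 bp, 32.1% at 1500 to 3000 bp and 42.2% over 3000 bp, and the share called lower 22.0%, 15.6% and 12.7%. Among Tmem genes 6 of 28 under 1500 bp were called higher and 3 lower, 14 of 70 at 1500 to 3000 bp higher and 14 lower, and 11 of 63 over 3000 bp higher and 17 lower. The median exon length was 2426 bp for members called higher and 3057 bp for those called lower, where over all tested genes it was 3791 bp and 2750 bp. Pearson's r between the difference and log exon length was -0.17 (rho -0.14) across the 161 members and 0.26 (rho 0.24) across all tested genes. These are descriptions across genes with no p, and the difference between the slopes was not tested.

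**Figure D5:**
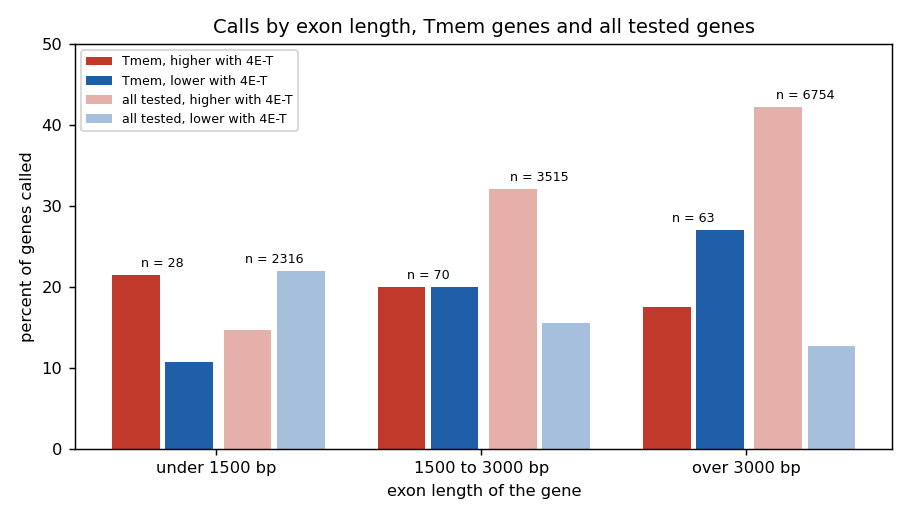
Percent of genes called higher (red) and lower (blue) with 4E-T by exon length, in full colour for Tmem genes and pale for all tested genes, with the number of genes above each pair. Over 3000 bp, 17.5% of Tmem genes were called higher and 27.0% lower, against 42.2% and 12.7% of all tested genes.

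Lower calls among the genes with over 3000 bp of exons included Tmem245, with 1.71 and 1.98 FPKM with 4E-T, against 4.43 and 4.12 FPKM with IgG (1.86-fold lower on the log2(FPKM + 1) scale, where the ratio of the mean FPKM was 2.32), whose 15981 bp of exon sequence are the most of any called member. Tmem56 had 1.92 and 2.02 FPKM with 4E-T and 4.91 and 3.84 FPKM with IgG (1.80-fold lower, with a ratio of mean FPKM of 2.22). With voom, the log2 differences of Tmem245 and Tmem56 were -1.48 and -1.40, against -0.89 and -0.85 on the main scale. Tmem196, the member whose promoter window is given above, had 0.700 and 0.627 FPKM with 4E-T and 2.41 and 1.80 FPKM with IgG, and its difference of -0.89 was -1.52 at a pseudocount of 0.1 and -1.91 with voom. For Tmem245 and Tmem56 the IgG values lay above every 4E-T value, as for every gene called lower. Tmem196 passed the FPKM limit through the IgG libraries alone, so it had to differ to be a member.

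A number shared between Tmem genes usually marks relatives, and 28 numbers were shared by 2 or more members, 58 genes in all. Of these numbers, 10 held higher calls and no lower call, 10 held lower calls and no higher call, 7 held no call and 1 held both. At least 2 genes were called higher for Tmem131, Tmem132, Tmem181 and Tmem63, and at least 2 lower for Tmem106 and Tmem167. In the other numbers with calls in a single direction only 1 gene was called, so these show no shared direction. Of all 161 members 19.3% were called higher and 21.1% lower, and of all tested genes 34.3% and 15.2%. Whether relatives moved alike more often than other members was not tested. The number with both was that of Tmem50. Tmem50a had 49.8 and 43.7 FPKM with 4E-T, against 35.6 and 32.9 FPKM with IgG (1.35-fold higher; limma adjusted p = 0.0130). Tmem50b had 15.8 and 14.03 FPKM with 4E-T and 21.1 and 17.5 FPKM with IgG (1.27-fold lower; 0.0437).

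Both Tmem50 calls were lost without IgG library 1 (0.0685 for Tmem50a and 0.328 for Tmem50b) or IgG library 2 (0.150 and 0.0547). That of Tmem50a was also lost without 4E-T library 1 (0.104) and that of Tmem50b without 4E-T library 2 (0.211). Tmem128, whose function is unknown, had 17.2 and 12.5 FPKM with 4E-T and 23.7 and 20.7 FPKM with IgG, and was uncalled without 4E-T library 2 (0.0930) or IgG library 1 (0.0919).

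Other membrane protein families were set beside the Tmem genes. Of 193 solute carrier (Slc) genes, 44 (22.8%) were called higher and 30 (15.5%) lower, beside 34.3% and 15.2% of all tested genes. Their median difference was 0.04. Of 18 tetraspanin and Lhfpl genes, which encode proteins that span the membrane 4 times, 1 (5.6%) was called higher and 7 (38.9%) lower. Their median difference was -0.28. With median ratio scaling, 22 Slc genes were called higher and 48 lower, and 0 and 12 tetraspanin and Lhfpl genes. Of all tested genes 22.8% and 23.6% were called under that scaling. Without IgG library 2 the Slc genes held more lower than higher calls, unlike all tested genes. Without IgG library 1 fewer tetraspanin and Lhfpl genes, and fewer of all tested genes, were called lower. The families were not tested against each other. Leaving out the 40 Tmem genes that overlap another coding gene left 121. Of these, 23 (19.0%) were called higher and 27 (22.3%) lower, beside 34.3% and 15.2% of all tested genes.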

How the data were processed

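The members and gene lists were chosen with earlier results of these data known, and the location lists were compiled from general knowledge. Per the labels' protocols, a Magna RIP kit served for the RNA, and SMART-Seq v4, which does not mark strand, with Nextera XT for the libraries. The authors' tools, listed without settings in the submitters' processing notes, were STAR 2.6.0c and HTSeq 0.6.1p2, Trim Galore 0.5.0 and FastQC 0.11.5, and DESeq and DESeq2 1.26.0, and the genome build the authors named was mm10. The authors deposited 1 table with FPKM per library and baseMean, a normalised signal averaged over libraries, per the file headers. It also holds the authors' log2 fold changes, the test statistic (a score), p-values and the linear fold change (a ratio) of 4E-T over IgG.

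limma 3.58.1 (R 4.3.3; trend and robust options) was fitted to log2(FPKM + 1) of the 12585 genes that reached 1 FPKM in 2 libraries or more, with the antibody as the only term. P-values were adjusted by Benjamini-Hochberg over all 12585 genes, and calls used 0.05. With 2 libraries per antibody the test leans on the variance limma pools over genes, worth 27 prior degrees of freedom. The scale understates the change of low genes, and folds were taken from it. Whole reads were recovered from FPKM and baseMean for 100% of 86952 values within 0.01 read, and gave depth and exon length, scaled on 7 mitochondrial genes. Libraries of one antibody differed by more than sampling noise (chi-square per degree of freedom 44.4 for 4E-T and 31.2 for IgG). Gene names and coordinates came from RefSeq, which matched 160 of 161 members. The named members were the 12 largest differences in each direction, whose higher group averaged 5 FPKM or more and whose sign was alike in both experiments, the 8 most abundant, up to 3 per direction in each location or partner list, the 3 on each side of the FPKM limit, and same-number genes with opposite calls. Other genes named were chosen after their values were seen. One further gene of a partner list is not reported here, so the counts of that list do not cover it.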

Additional observations from a re-analysis of the deposited data

How the results depend on the processing

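Settings tried were pseudocounts of 0.1 and 0.5, no filter, FPKM of at least 5, median ratio scaling, quantile normalisation, no trend or robust option, a replicate block, leaving out each library and, chosen after seeing the data, voom on recovered reads. The 31 higher and 34 lower calls became 13 and 54 under median ratio scaling, 18 and 55 under quantile normalisation (25.1% higher and 22.5% lower among all tested genes) and 11 and 62 with voom. Among the 94 placed members the 16 and 19 became 8 and 32, 10 and 33, and 7 and 39 in those settings. Without 1 library, where the lone library left is assumed to vary like the other antibody's, 15 to 29 members were called higher and 22 to 32 lower, and among placed members 9 to 17 and 14 to 18. Of all tested genes, leaving out 4E-T library 1 called 26.5% higher and 13.7% lower, leaving out 4E-T library 2 gave 33.8% and 13.9%, leaving out IgG library 1 gave 24.7% and 8.75%, and leaving out IgG library 2 gave 19.0% and 10.1%. The lowest counts, 15 and 22, came without IgG library 1, and 16 were called higher without 4E-T library 1 or IgG library 2. Of 12585 genes, voom called 19.7% higher and 26.9% lower. With the experiment number as a replicate block, 34 members were called higher and 39 lower, and deviations sharing a number had r = 0.064. From 2 pairs this does not show whether a number marks a shared culture or day. Over the Tmem genes named, 618 results kept direction and call, 85 lost the call, 3 gained it, 15 uncalled ones turned sign and 0 called ones did. What limits the calls was not tested.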
